A study of Caenorhabditis elegans with 2 samples.

Results

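The col genes of Caenorhabditis elegans, the large family named for the collagens of the worm's cuticle, were examined for binding of the zinc-finger protein HAM-2 in embryos. All protein-coding genes of assembly WBcel235 whose name begins with col- were taken, 156 of the 19973 protein-coding genes on the nuclear chromosomes. The RefSeq product of 149 of them names the cuticle or a cuticle collagen domain, and that of the other 7 names a collagen without the cuticle. Binding was measured by ChIP-seq, in which DNA held by a tagged protein is recovered with an antibody, sequenced, and the places where reads pile up are called as peaks. The 2 libraries, biological replicates 6 and 7, form a single group. They came from strain OP639, in which the integrated transgene wgIs639 gives HAM-2 fused to TY1, EGFP and 3xFLAG. The transgene also carries unc-119(+), the strain has the unc-119 allele tm4063, and the precipitation used an antibody against GFP. Per the labels these were embryos of mixed stage and pooled sex, aged 3 hours and collected by egg bleaching. The series has no second group, and no list from an untagged strain was analysed here.

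Cuticle collagens are secreted by the epidermis and are assembled, cross-linked and shed with each moult. Their chains carry Gly-X-Y repeats that wind into a triple helix, and the family has many members because different sets are made at different stages and in different parts of the cuticle. The first cuticle is laid down late in embryogenesis. HAM-2 is known for its role in the migration of the HSN motor neurons.

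For each gene the strongest summit (the point of highest signal in a peak) was sought in a promoter window that reaches 1000 bp upstream and 200 bp downstream from its annotated 5′ end. A gene is called bound where that summit belongs to the reproducible set. That set is the submitters' list of 1945 peaks thresholded by the irreproducible discovery rate, a measure of agreement between replicates. The longer pooled list holds 30000 peaks called on both replicates together, background included. The reproducible set equals the 1945 strongest peaks of the pooled list. Signal is the value the authors' peak caller gave each peak, and signals are compared only within a list. The replicate lists hold 28414 and 30000 peaks on the nuclear chromosomes for replicates 6 and 7. The sources used here give no read depth.

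Of the 156 col genes, 7 were bound: col-3, col-10, col-42, col-107, col-117, col-174 and col-185. That is 4.49% (95% exact Clopper-Pearson interval 1.82 to 9.03%), beside 4.60% of all protein-coding genes. The share of bound col genes is near the background, so the count says nothing particular about the family. The 7 genes have 6 peaks, because col-3 and col-117 are divergently transcribed from a common upstream region that holds a single summit. The interval treats genes as independent calls and so counts that shared peak for both genes. None of the other 5 peaks lay in the promoter window of a second protein-coding gene. The RefSeq product of col-10 is cuticle collagen 10, and each of the other 6 genes is annotated with a nematode cuticle collagen N-terminal domain.

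The sequence around each of the 6 summits is given to show what lies under the peaks, and that at col-121 and col-71, the second and the third col genes below the threshold, to show summits that were not in the reproducible set. The sequence at the first below it, col-65, is not shown. Each run is 101 bases centred on the pooled summit, read 5′ to 3′ on the strand of the named gene, from WBcel235 (RefSeq), the same assembly as ce11. Capitals mark AGAGA or its reverse complement TCTCT. The places are chrIV:8824471-8824571 on the minus strand for col-117 (shared with col-3), chrV:9165491-9165591 on the minus strand for col-10, chrV:18637743-18637843 on the plus strand for col-42, chrIV:1548595-1548695 on the plus strand for col-107, chrX:13511885-13511985 on the minus strand for col-185, chrX:7546516-7546616 on the plus strand for col-174, chrIV:9396416-9396516 on the minus strand for col-121 and chrII:3502711-3502811 on the minus strand for col-71. None overlaps an annotated exon except that at col-185, which runs into a tRNA gene.
col-117: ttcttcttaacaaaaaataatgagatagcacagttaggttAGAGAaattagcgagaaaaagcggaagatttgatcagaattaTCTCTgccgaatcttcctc
col-10: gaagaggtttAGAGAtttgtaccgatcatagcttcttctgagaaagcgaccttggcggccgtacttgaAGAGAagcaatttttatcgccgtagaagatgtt
col-42: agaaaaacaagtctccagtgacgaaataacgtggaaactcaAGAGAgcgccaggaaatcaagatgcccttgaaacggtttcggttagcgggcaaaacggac
col-107: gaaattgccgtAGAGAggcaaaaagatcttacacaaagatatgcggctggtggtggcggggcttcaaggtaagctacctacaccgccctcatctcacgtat
col-185: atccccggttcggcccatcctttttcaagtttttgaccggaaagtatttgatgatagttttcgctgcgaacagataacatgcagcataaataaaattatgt
col-174: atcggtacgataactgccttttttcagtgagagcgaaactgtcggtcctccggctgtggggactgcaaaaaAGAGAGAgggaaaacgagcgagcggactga
col-121: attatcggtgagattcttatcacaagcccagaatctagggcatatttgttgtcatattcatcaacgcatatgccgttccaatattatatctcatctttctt
col-71: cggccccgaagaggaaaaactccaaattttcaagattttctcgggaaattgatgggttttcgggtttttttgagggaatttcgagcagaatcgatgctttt

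AGAGA was picked because it occurs in 5 of the 6 windows at bound col genes, all but that of col-185, so its count there is a description and no evidence. On either strand it was present in 862 of the 1945 windows around all reproducible summits (44.3%). In windows of the same length 250 bp further along the plus strand it was present in 1 of the 6 at col genes and in 24.4% of all. The longer word GAGAGA, from a list of 5 words, was present only at col-174 among the 6 windows, beside 25.1% of all reproducible summit windows. The other words of that list are the GATA-type site TGATAA, the nuclear receptor half-site AGGTCA, the E-box CACGTG and the worm telomere unit TTAGGC. Each of them was present in 0 of the 6 windows. Over all reproducible summit windows their shares ran from 2.01% for CACGTG to 8.69% for TTAGGC. With shares this low, 0 of 6 does not set the col summits apart. Those words on either strand were also counted in the 300 bases upstream of each 5′ end. TGATAA was present upstream of 60 col genes (38.5%), beside 30.7% of all genes, AGGTCA upstream of 22 (14.1%) beside 8.48%, GAGAGA upstream of 46 (29.5%) beside 21.6%, TTAGGC upstream of 10 (6.41%) beside 6.53%, and CACGTG upstream of 0, beside 5.74%. Of the 7 bound genes, 1 had TGATAA there, 0 had AGGTCA, 3 had GAGAGA and 1 had TTAGGC. These matches are descriptions of letters and were not tested. The 6 windows had a median of 45.5% G and C, and ranged from 34.7% at col-117 to 52.5% at col-174, beside a median of 49.5% over all reproducible summits.

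The strongest peak in the promoter windows of the family lay between col-3 and col-117. The genes are WBGene00000594, on chromosome IV from 8824783 to 8826013 on the plus strand, and WBGene00000691, on chromosome IV from 8822962 to 8824195 on the minus strand, with 587 bp between them. The peak, from 8824311 to 8824730, had a pooled signal of 201.1 and rank 547 of the pooled list. It stood at rank 735 in replicate 6 with a signal of 113.7 and at rank 423 in replicate 7 with a signal of 88.9. The summit lay 262 bp upstream of col-3 and 326 bp upstream of col-117, and the replicate 7 summit was 36 bp nearer to col-117. The peak therefore ranked high in both libraries and cannot be given to either gene by position.

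These neighbours are inverted near-copies of each other. Of the 1196 stretches of 36 bases in col-3, 1124 (94.0%) occur in col-117 on the opposite strand. None of the 385 stretches of that length in the peak occurs anywhere else in the nuclear genome. The signal thus lay on unique sequence flanked by duplicated genes. In the whole promoter windows of this pair, which reach into the duplicated bodies, 52.3% of 36-base stretches were repeated, the highest share among the 156 windows, whose median is 0%. The sources used here do not say how reads with several matches were aligned.

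At col-10 (WBGene00000599, chromosome V, 9164292 to 9165307, minus strand), whose promoter is widely used to drive expression in the epidermis, the peak ran from 9165331 to 9165750. Its pooled signal was 185.3, at rank 656, and the summit lay 234 bp upstream of the 5′ end. It had rank 664 with a signal of 119.0 in replicate 6 and rank 1037 with a signal of 59.1 in replicate 7, where the summit was 8 bp away. The gene sits in a cluster of 3 with col-144 and col-145, within 5.72 kb, all on the minus strand. Of the 981 stretches of 36 bases in col-10, 711 (72.5%) recur in col-144 and 158 (16.1%) in col-145, while the 385 of the peak recur nowhere. The copies were not bound. The strongest pooled summit in the window of col-144 had a signal of 29.4, at rank 26686, and no summit of either replicate lay in that window. The window of col-145 held no summit in any of the 4 lists.

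The col-42 peak lay further upstream. The gene (WBGene00013489, chromosome V, 18638484 to 18639591, plus strand) had a peak from 18637583 to 18638002 with a pooled signal of 164.5 at rank 825, and the summit lay 691 bp upstream. Its rank was 896 in replicate 6, with a signal of 102.2, and 862 in replicate 7, with a signal of 64.1, so the replicates placed it almost alike. The nearest other col gene, col-163, was 1962 kb away.

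The summit nearest to a 5′ end was that of col-107 (WBGene00000681, chromosome IV, 1548721 to 1549714, plus strand), at 76 bp upstream. The peak, from 1548435 to 1548854, had a pooled signal of 153.9 at rank 953. In replicate 6 it had a signal of 96.8 at rank 1003 and in replicate 7 a signal of 59.0 at rank 1041, with the replicate 7 summit at 115 bp upstream. The summit lies in an intron of C34H4.5, a gene on the opposite strand, so position alone does not assign it to col-107.

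On chromosome X, col-185 (WBGene00000758, 13510035 to 13511097, minus strand) had a peak from 13511725 to 13512144, and the summit, at 838 bp upstream, was the furthest of the 7. Its pooled signal was 144.1 at rank 1072. It had rank 944 with a signal of 100.2 in replicate 6 and rank 1397 with a signal of 52.1 in replicate 7, where the summit was 104 bp away, at 942 bp upstream. A tRNA gene, WBGene00014413, lay 35 bp from the summit, and 47 of the 385 stretches of 36 bases in the peak (12.2%) occur elsewhere in the genome. It is the only one of the 6 peaks within 250 bp of a short noncoding gene; the nearest such genes to the other 5 were at least 31202 bp away. The part of the tRNA gene in this peak was not tested.

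The weakest of the 6 was at col-174 (WBGene00000747, chromosome X, 7546809 to 7548365, plus strand), from 7546356 to 7546775, with its summit 243 bp upstream. The pooled signal was 112.7 at rank 1705. The replicate 6 signal was 70.2 at rank 1828 and the replicate 7 signal 43.8 at rank 2187. It was the only one of the 6 peaks whose match fell outside the 1945 strongest peaks of a replicate, that of replicate 7.

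**Figure D1:**
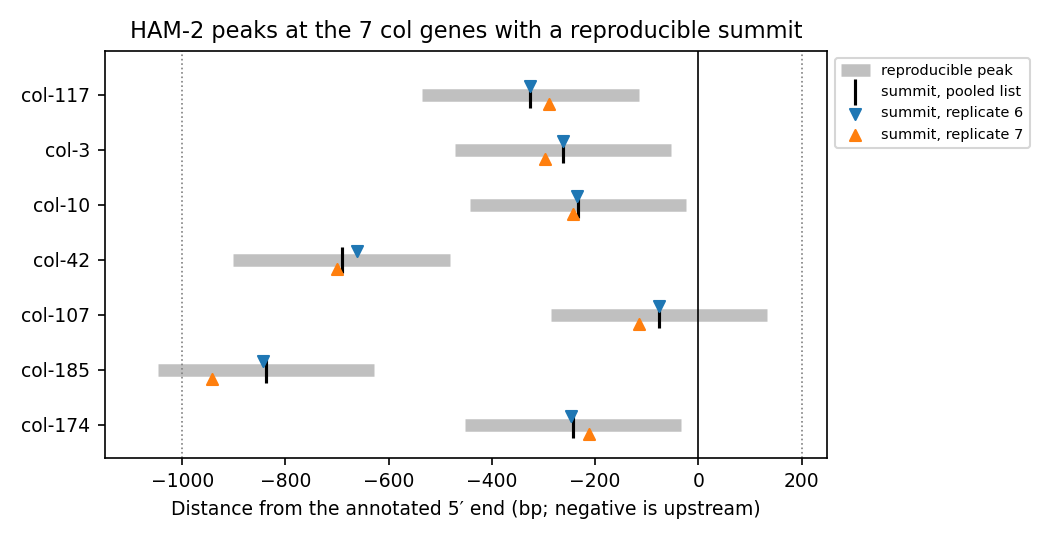
Peaks at the 7 bound col genes, drawn against distance from the annotated 5′ end in bp, with negative values upstream. Grey bars are the reproducible peaks, black ticks the pooled summits, blue and orange triangles the summits of replicates 6 and 7, and dotted lines the promoter window. All 7 summits lie upstream, 5 of them within 500 bp, and the replicate summits are furthest apart at col-185.

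All 7 bound genes had their summit upstream of the 5′ end, at a median of 262 bp, beside a median of 295 bp over all 919 bound genes. Distinct signals at the 6 peaks had a median of 159.2, beside 152.4 for the whole reproducible set. The reproducible set starts at a signal of 105.3. The col gene just inside that value was col-174 at 112.7, and the one just outside was col-65 at 97.2. The bound genes had a median coding length of 897 bp (882 to 1014 bp), beside 912 bp (462 to 2220 bp) for the other 149 col genes, and both groups had a median of 2 exons. The space to the next protein-coding gene upstream had a median of 587 bp (0 to 6675 bp) at the 7 bound genes and 873 bp (0 to 26989 bp) at the other col genes. The gap of 587 bp between col-3 and col-117 counts for both genes here. With that gap counted once, the bound median would lie above 873 bp, so the medians give no direction. No test was made of these differences.

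Replicate ranks lay further apart at most of the 10 col genes next in pooled order. The reproducible set holds the strongest peaks of the pooled list, called on both replicates together. This contrast is therefore tied to that choice and is no evidence for the calls. The col-65 summit, 395 bp upstream on chromosome I, had pooled rank 2252 with a signal of 97.2, and the ranks in replicates 6 and 7 were 2877 and 2413. The col-121 summit, 248 bp upstream, had a pooled signal of 94.8 at rank 2362 and replicate ranks of 2075 and 5448. For col-71 the pooled rank was 3017 and the strongest summits in its window had ranks of 2018 in replicate 6 and 17589 in replicate 7. For col-38 the pooled rank was 3042 and the replicate ranks were 1548 and 27412, so its window held one of the 1945 strongest peaks of replicate 6 and only a weak peak of replicate 7. At col-97 the pooled rank was 3287 with replicate ranks of 2418 and 7275, and at col-43 it was 3319 with 2327 and 12678.

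As at col-65, replicate 7 ranked higher at col-77, whose window held summits of rank 4545 in replicate 6 and 2979 in replicate 7, with a pooled rank of 3367. The gene col-47 had pooled rank 3456 and replicate ranks of 3382 and 7182. At col-88 the pooled rank was 3746 and the replicate 6 rank 2411, with no replicate 7 summit in the window. The tenth of these genes, col-63, had pooled rank 4121 and replicate ranks of 4170 and 13725. The replicate ranks just given are for the strongest summit anywhere in the window, which at some genes is another summit than the pooled one. At col-71 it lay 169 bp upstream in replicate 6 and 451 bp upstream in replicate 7, and at col-43 it lay 968 bp and 255 bp upstream.

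**Figure D2:**
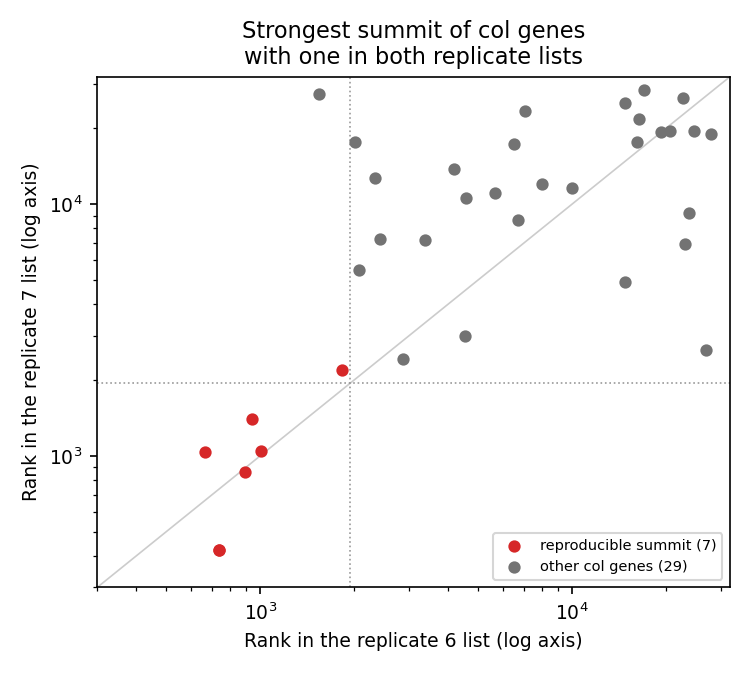
Rank of the strongest promoter-window summit in the replicate 6 list (x, log axis) against the replicate 7 list (y, log axis) for the 36 col genes with a summit in both lists. Red points are the 7 bound genes, with col-3 and col-117 at one point, grey points the other col genes, dotted lines the rank of 1945 and the grey line equal ranks. The bound genes lie together at ranks of 423 to 2187, and the others scatter widely. Bound genes were chosen through the strongest peaks called on both replicates together, so this contrast is tied to the choice.

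Across the family, 58 col genes (37.2%) had a summit of any signal in the replicate 6 list and 61 (39.1%) in the replicate 7 list, beside 35.1% and 33.7% of all protein-coding genes. Both lists held one at 36 genes, which is 62.1% of the replicate 6 genes and 59.0% of the replicate 7 genes. Over all protein-coding genes the shares were 60.5% and 63.0%. At 22 of the 36 (61.1%) the strongest summits lay within 100 bp of each other, beside 56.0% over all genes. Between replicates 6 and 7 the signals had a Spearman rho of 0.58 over the 36 col genes, beside 0.59 over the 4241 genes with a summit in both lists. Over the 22 col genes whose summits lay within 100 bp it was 0.74, beside 0.72 over all such genes. With the bound genes left out, which removes the strongest signals, it was 0.22 over 29 col genes, beside 0.27 over all genes. These are descriptions across genes, which are not independent replicates. Neither replicate list held a summit at 73 col genes (46.8%), beside 52.4% of all genes.

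In the pooled list, 59 of the 156 col genes (37.8%) had a summit of any signal in the promoter window, beside 35.3% of all protein-coding genes. Most of these are weak. The strongest summits of the 59 had a median signal of 47.0, from 27.1 at col-93 to 201.1 at col-3 and col-117, beside a median of 45.9 over the 7044 genes with one. Pooled ranks of 1946 to 3890 were held by 9 col genes (5.77%), beside 3.49% of all genes, ranks of 3891 to 10000 by 11 (7.05%) beside 8.18%, and the ranks from 10001 on by 32 (20.5%) beside 19%. The remaining 97 col genes (62.2%) had no pooled summit in the window, beside 64.7% of all genes. In the 3890 strongest pooled peaks there were 16 members (10.3%), beside 8.09% of all genes, and these shares were not tested. Of the 59 summits, 48 lay upstream of the 5′ end (81.4%, beside 83.6% of all genes with a summit). Within 500 bp upstream lay 26 (44.1%, beside 49.3%), and 11 lay at or downstream of the 5′ end (18.6%, beside 16.4%).

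**Figure D3:**
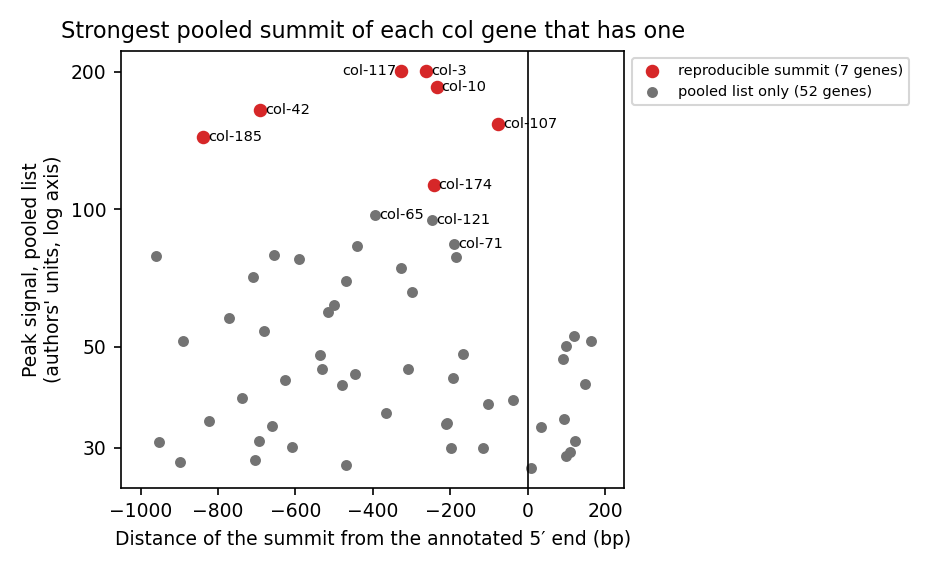
Signal of the strongest pooled summit (y, authors' units, log axis) against its distance from the annotated 5′ end in bp (x) for the 59 col genes that have one. Red points are the 7 bound genes and grey points genes with a summit in the pooled list only; the 7 bound genes lie between 76 and 838 bp upstream, and most grey points lie under a signal of 50.

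**Figure D4:**
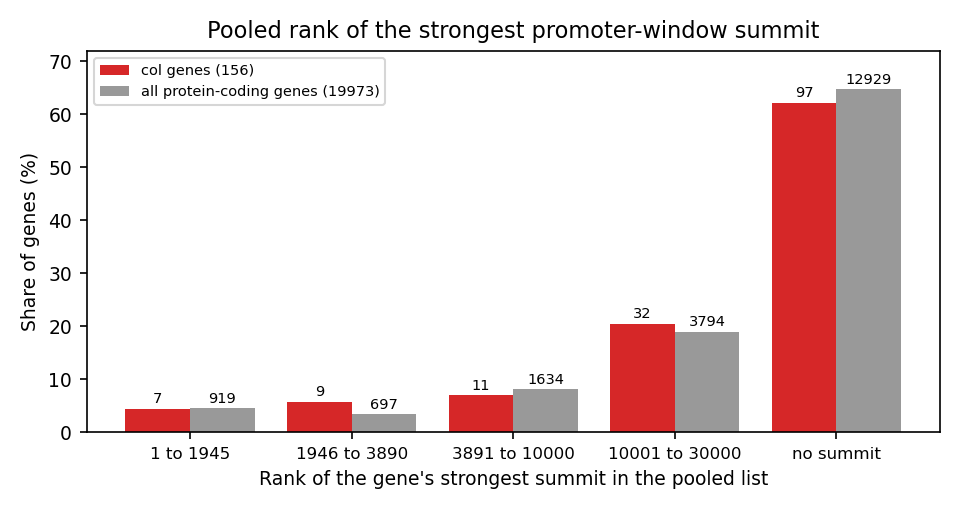
Share of genes in percent (y) by the rank of their strongest promoter-window summit in the pooled list (x), for the 156 col genes in red and all 19973 protein-coding genes in grey. Numbers above the bars are counts of genes. The bars are furthest apart in proportion at ranks 1946 to 3890, at 5.77% of col genes and 3.49% of all genes, and 97 col genes and 12929 genes in all had no summit.

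Well-studied members were among those without binding. The adult-specific collagen gene col-19 had no summit in its promoter window in any of the 4 lists, and its nearest reproducible summit was 10052 bp from the 5′ end. The neighbours col-12 and col-13 had none either, and their nearest reproducible summits were 41543 and 44839 bp away. The gene col-99 encodes a transmembrane collagen and has 18 exons. Its window held only a pooled summit with a signal of 28.2 at rank 28439 and a replicate 6 summit at rank 20217. Over the family, the nearest reproducible summit was a median of 21661.5 bp from the 5′ end, beside 23150 bp for all protein-coding genes, and for 81 col genes (51.9%) it was 20000 bp or more away, beside 54.5%.

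Stronger peaks lay at col genes outside the promoter window, mostly on tRNA genes. Inside col-85, 345 bp downstream of the 5′ end and not in an exon of it, lay a reproducible summit with a signal of 396.4, at rank 110 in the set and ranks 131 and 110 in replicates 6 and 7, on chromosome II from 12494652 to 12494901. An intron of col-99 held one with a signal of 361.0, at rank 142 in the set and ranks 243 and 99 in replicates 6 and 7, on chromosome IV from 143888 to 144116, and another at col-72 had a signal of 242.2, at ranks 384, 611 and 236, on chromosome II from 3521433 to 3521623. Each of these 3 summits is inside a tRNA gene that lies within the collagen gene. A tRNA gene also holds the summit 1250 bp downstream of the col-181 5′ end, past its 3′ end, with a signal of 509.5 at ranks 63, 65 and 64. Past the 3′ end of col-128 a summit with a signal of 233.6 at rank 421 lay 40 bp from the snoRNA gene F12F6.11.

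The other summits in or just past col genes had no short noncoding gene within 250 bp. The second summit in col-72, 388 bp downstream of the 5′ end and 2251 bp from the nearest short noncoding gene, had a signal of 119.0 at rank 1533, 1732 in replicate 6 and 1356 in replicate 7. The overlapping genes col-46 and col-47 share a summit on chromosome I, in the peak from 746088 to 746507, with a signal of 188.8 at rank 627, 600 in replicate 6 and 758 in replicate 7. It lay in an exon of col-46, 915 bp downstream of that 5′ end and 410 bp downstream of that of col-47. At col-83 a summit past the 3′ end had a signal of 247.2 at rank 366. In all, 5 col genes (3.21%) had a reproducible summit in the gene body, beside 3.04% of all protein-coding genes.

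Col genes were spread over all 6 nuclear chromosomes, and the bound ones lay on chromosomes IV, V and X. Chromosome IV holds 41 col genes, of which 3 were bound, chromosome V holds 31 with 2 bound, and chromosome X holds 27 with 2 bound. The share bound among all protein-coding genes of these chromosomes was 4.08%, 2.48% and 6.92%. None of the 21, 24 and 12 col genes of chromosomes I, II and III was bound, where 5.56%, 4.32% and 6.17% of all genes were. Pooled summits of any signal lay at 9 of the 12 col genes of chromosome III (75.0%, beside 43.0% of all genes there), at 19 of the 41 on chromosome IV (46.3%, beside 29.0%) and at 11 of the 24 on chromosome II (45.8%, beside 38.0%). They lay at 5 of the 21 on chromosome I (23.8%, beside 43.7%), 7 of the 31 on chromosome V (22.6%, beside 26.5%) and 8 of the 27 on chromosome X (29.6%, beside 39.0%). These shares were not tested, and with so few genes a chromosome they move by several percent with each gene. Of the 156 genes, 101 (64.7%) lay in the central 50% of their chromosome, beside 55.3% of all genes, as did 4 of the 7 bound ones.

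**Figure D5:**
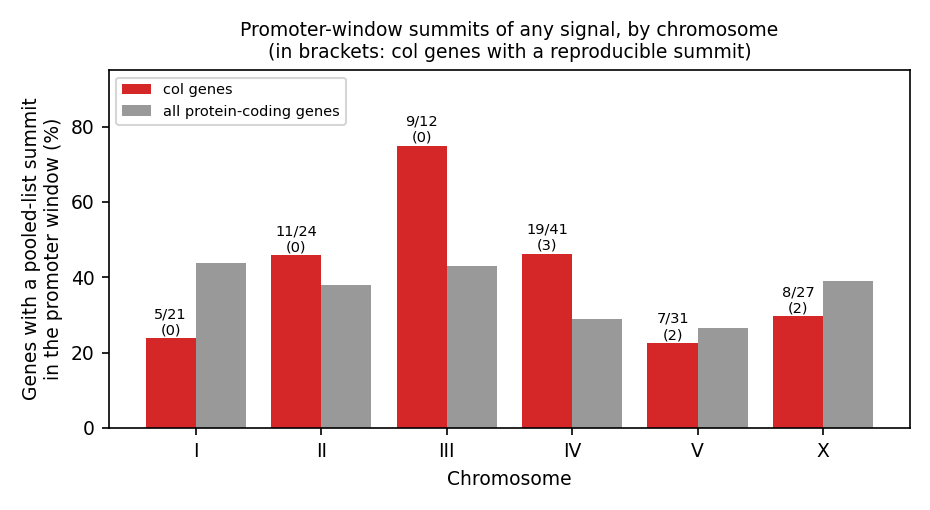
Share of genes in percent with a pooled-list summit of any signal in the promoter window (y) on each nuclear chromosome (x), for col genes in red and all protein-coding genes in grey. Counts above the red bars are col genes with such a summit over all col genes of the chromosome, with the number bound in brackets. Chromosome III has the highest col share, 9 of 12, with 0 bound.

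Col genes whose 5′ ends lie within 20 kb of the next were taken as a cluster. There were 7 clusters of 3 or more with 23 genes in all, 15 pairs with 30 genes, and 103 single genes. Of the 23 genes in clusters 1 was bound, col-10. Of the 30 in pairs 2 were, col-3 and col-117, and of the single genes 4. Pooled summits of any signal lay at 9 of the 23 (39.1%), 12 of the 30 (40.0%) and 38 of the 103 (36.9%). The largest cluster, col-167 to col-171 on chromosome X from 6323488 to 6335221, had 5 genes, 0 bound, and a pooled summit only at col-169. In the cluster of col-10 the other members had no reproducible summit, and the only pair with both members bound shares a peak. Over all protein-coding genes 4.60% were bound, and the clusters of 3 or more held 1 bound gene. These counts are too small to tell whether binding extends along a cluster.

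Cuticle collagen genes with other names, and genes that act on collagens, were counted in the same way. Set against the 4.49% of col genes, 6 of 19 cuticle collagen genes named for body shape or movement (dpy, sqt, rol, bli and lon-3) were bound (31.6%), with 4.60% over all protein-coding genes, and 15 of the 19 had a pooled summit (78.9%), beside 37.8% of col genes and 35.3% of all protein-coding genes. The difference was not tested, and earlier results of these data on dpy genes were known when the list was written. The 6 were dpy-10 with a signal of 264.7, dpy-13 with 189.5, dpy-14 with 161.2, dpy-3 with 133.0, dpy-7 with 117.2 and sqt-2 with 106.9. Unlike for the col genes, distances to short noncoding genes and calls in other windows are not given here for these genes. At dpy-10, dpy-13 and dpy-14 the strongest summit in the window was among the 1945 strongest peaks of both replicates. In 1 replicate it fell outside them at dpy-3 (rank 3038 in replicate 7), dpy-7 (2119 in replicate 6) and sqt-2 (2622 in replicate 6). Their summits lay 17 bp upstream of the 5′ end at dpy-3, 61 bp at dpy-13, 131 bp at dpy-14, 311 bp at sqt-2, 337 bp at dpy-7 and 985 bp at dpy-10. Of 18 genes for collagen modification, cleavage and cross-linking, 4 were bound (22.2%) and 12 had a pooled summit (66.7%). The bound ones were pdi-2, a protein disulfide isomerase that also serves as a subunit of prolyl 4-hydroxylase, with a signal of 395.6 at rank 111 of the set, pdi-1 with 153.0, pdi-3 with 137.5 and dpy-31, an astacin-type protease that trims collagens, with 118.3. At dpy-31 the replicate 7 window rank was 4116, outside the 1945 strongest. Those of pdi-1, pdi-2 and pdi-3 lay within them in both replicates. Of the 3 basement membrane and related collagen genes emb-9, let-2 and cle-1, 0 were bound and 1 had a pooled summit. Of 11 epidermal transcription regulators 7 had a pooled summit (63.6%) and 1 was bound, nhr-23, a nuclear receptor of the moulting cycle, with a signal of 223.6 and its summit 915 bp upstream.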

How the data were processed

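Peak lists for 2 libraries of 1 group were used, with a pooled and a reproducible list. Per the labels' protocols, chromatin was sonicated to 200 to 800 bp and the assembly is ce11. The authors made the replicate and pooled lists from replicate and control alignments, per the deposited listing. The reproducible list was made from both replicate lists and the pooled list. The sources used here name no aligner or peak caller and give no read depth, so depth sets no interval here. Values are the signal per peak that the authors deposited, whose scaling is not stated. The reproducible list equals the 1945 strongest peaks of the pooled one.

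Genes came from Ensembl release 115 and sequence and products from RefSeq, both WBcel235, in which every last peak ended inside its chromosome. Ranks count nuclear peaks only, from the highest signal down. Positions are 1-based. A replicate's match to a reproducible peak is its strongest peak that overlaps by at least 1 bp. Intervals are exact Clopper-Pearson intervals at 95% and cover counting error only. No test between groups exists, and none was made over the gene lists. Repeated stretches are 36-base words found more than once in the nuclear genome on either strand. On simulated data, 131 of 131 summits planted in windows were recovered. Tools were matplotlib 3.10.9, scipy 1.17.1, numpy 2.4.6 and pandas 2.3.3 under Python 3.11.15.

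Members, lists and tests were chosen with earlier results of these data known. Named genes are the bound col genes, the 10 with the next strongest pooled summits, members of clusters with a bound gene, col-12, col-13, col-19 and col-99, and bound genes of the other lists. Genes with summits outside the window, the largest cluster, col-93 and the word AGAGA were picked with their values in view. The names elt-5 and ram-4 matched no gene name in the annotation and were left out of their lists.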

Additional observations from a re-analysis of the deposited data

How the results depend on the processing

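The count of 7 bound col genes stayed within 1.5 times under 8 of the 11 alternatives. It was 5 where the window ended 500 bp upstream and 100 bp downstream (3.24% of all genes) and 5 in the upper 50% of peaks (2.43%). It was 6 among peaks in both replicates' top lists, whether by 1 bp (2.90%) or by 50% of the peak's length (2.83%), and 6 without peaks near short noncoding genes (4.26%), where col-185 was lost. It was 8 from the 5′ end of any transcript (5.19%), where col-47 was gained. From single replicates it ranged from 6 without replicate 6 (3.84%), which lost col-174, to 8 without replicate 7 (4.80%), which gained col-38. It moved to 13 (8.33%) where it reached 2000 bp upstream and 500 bp downstream, beside 6.89% of all genes, to 16 (10.3%) among the 3890 strongest pooled peaks, beside 8.09%, and to 15 (9.62%) when each summit went to the nearest 5′ end within 5000 bp, beside 7.34%. The first of these takes more sequence and the second more peaks for every gene, and the nearest-end rule kept 6 of the 7 and lost col-117. The count of 59 with any pooled summit was 41 in the narrower window (22.4% of all genes) and 87 in the wider one (51.9%), and from single replicates it was 58 and 61. Matching replicate peaks by summits within 100 bp gave the same signal for 13 of the 14 values of bound genes; the replicate 7 summit at col-185 had no match. No paired analysis was possible because the series has a single group. Calls rest on pooled rank, and the lists give no depth from which a missed peak could be told from an absent one.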
